A study of Mus musculus with 8 samples.

Results

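The cytosolic factors that start and elongate protein synthesis were examined in pancreatic beta cell samples from mice on a high-fat or a control diet. Every Agilent probe with a gene name beginning in Eif1 to Eif6, Eef1 or Eef2 was taken, the eIF2α kinases (Eif2ak genes) excepted. A probe was kept when the scanner software flagged it well above background on at least 4 of the 8 arrays. This gave 90 of 94 matching probes, for 59 genes, out of 26076 kept probes for 19994 gene names on the whole array. The 4 probes not kept, both probes of Eif4e1b (an eIF4E relative) and 1 probe each of Eif4e2 and Eif2s3x, were well above background on 0 arrays. Of the 90 probes, 83 were well above background on all 8 arrays, and 0 were saturated.

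All mice were C57BL/6 and carried no allele that the labels name. The 4 high-fat samples came from mice on a high-fat diet, and the 4 control samples from mice on a chow diet that the labels also call the control diet. Samples are labelled as biological replicates, without saying whether each is 1 mouse or a pool. The age and sex of the mice, what the diet contained and how long it lasted, and the way the cells were obtained are not given in the sources used. Each sample was hybridised with Cy3 as the only dye to its own array of 43020 non-control spots, of which 63.6% to 68.6% were well above background. The array's 75th percentile of signal was between 362.7 and 475.8 intensity units in high-fat samples and between 335.8 and 715.4 in control samples. The arrays lay on 2 slides with 2 arrays of each diet on each slide. High-fat arrays took positions 2 and 4 and control arrays positions 1 and 3 on both, so position and diet cannot be told apart. All 10 beta cell markers examined passed the same filter on dim probes, and so did the 6 alpha cell markers, the 5 markers of delta and PP cells and the 7 acinar markers, so the samples held RNA of other pancreatic cells as well. Acinar signal was high. The summed linear level of the acinar markers was between 1584 and 2617 times the 75th percentile on high-fat arrays and between 1217 and 2545 on control arrays. That of the beta cell markers was between 878.1 and 1167 on high-fat arrays and between 801.3 and 1145 on control arrays. The Y-linked genes Ddx3y, Uty and Eif2s3y were well above background on all 8 arrays, while both probes of Xist, the RNA that marks a silenced X chromosome, were so on 0 arrays, and the probe of the Y-linked gene Kdm5d on 1 (a control array).

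In eukaryotic cells the initiator tRNA is carried to the small ribosomal subunit by eIF2, whose GTP is renewed by the exchange factor eIF2B. The cap-binding complex eIF4F (eIF4E, eIF4G and the helicase eIF4A) and the scaffold eIF3 bring the mRNA, eIF1 and eIF1A guard start codon choice, and eIF5 and eIF5B complete the joining of the large subunit. In elongation eEF1A delivers aminoacyl-tRNAs, its partners eEF1B2, eEF1D and eEF1G renew its GTP, and eEF2 moves the ribosome along. Beta cells make large amounts of proinsulin, and in mice the restraint of translation through phosphorylation of eIF2α by the kinase PERK is needed for these cells to survive.

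Levels below are log2 signals relative to the array's 75th percentile, listed for replicates 1 to 4 of each diet. A difference is the mean level on high-fat arrays minus that on control arrays, with its standard error (SE) from limma fitted across all 26076 probes. Of the 90 translation factor probes, 0 passed an adjusted p of 0.05, against 0% of all probes tested, and the smallest adjusted p among them was 0.286 in limma. At an unadjusted p under 0.05 in limma, 4 factor probes were higher in high-fat samples, where the array as a whole had 2.41%, and 2 were lower, where the array had 3.39%. Among the 88 factor probes measured on all 8 arrays, the levels of the diets did not overlap for 3 probes that were higher (1.59% of all such probes) and for 1 that was lower (1.71% of all such probes). Both higher counts include an Eef2k probe that was well above background on 4 high-fat and 2 control arrays. Over the 83 factor probes well above background on all 8 arrays, 3 were higher and 2 lower at that p. In a limma fit of the 23079 probes of the whole array under that filter, 623 were higher and 751 lower. The diets did not overlap for 2 of these 83 that were higher and 1 that was lower. The differences were small. Their absolute value was under 0.25 for 79 of the 90 probes, and the 95% interval lay within a 1.5-fold change either way for 77 and within a 2-fold change for 88. The median SE was 0.14 for the factor probes and 0.17 for all probes tested. The differences were above 0 for 57 of the 90 factor probes (63.3%), against 48.0% of all probes, with a median of 0.055, against -0.01 over all probes. That balance moved with the scaling, since 46 of the 90 were above 0 after quantile normalization (median 0.005) and 76 after median scaling (median 0.13, where the median of all probes was 0.062). Under median scaling 900 probes of the whole array passed an unadjusted p of 0.05 upward and 496 downward, against 629 and 884 with the 75th percentile.

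**Figure D1:**
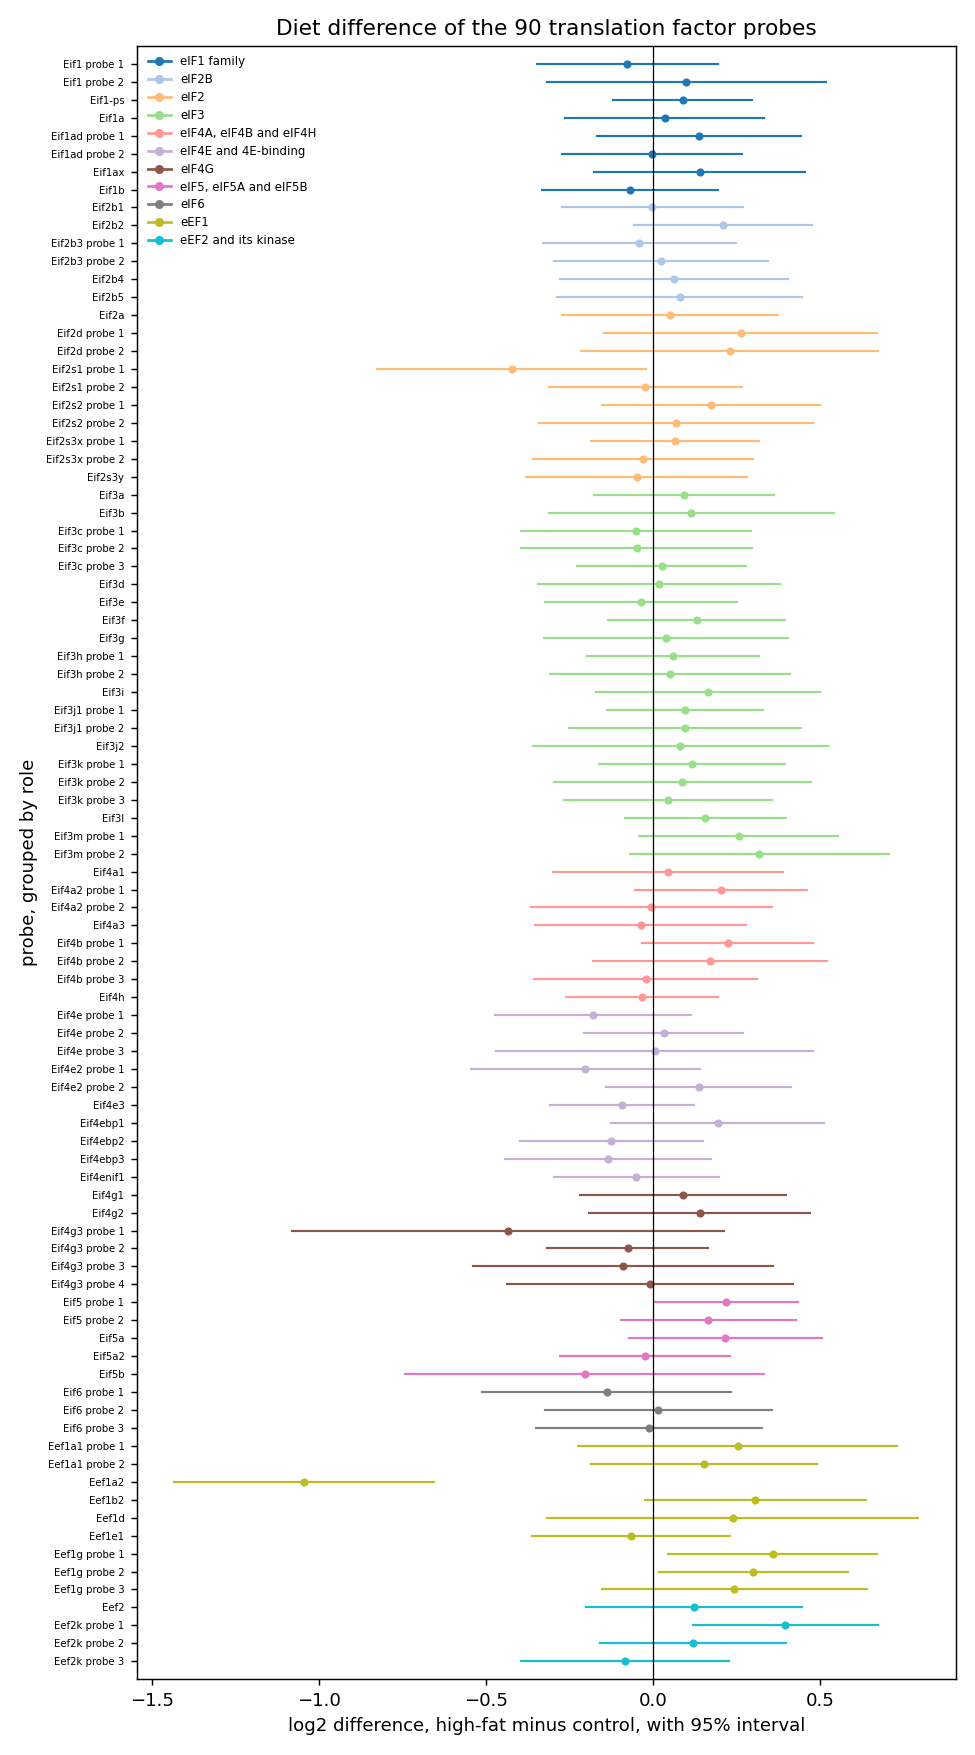
Log2 difference between the diets, high-fat minus control, for each of the 90 translation factor probes (points), with the 95% interval from limma (lines), coloured by role in translation; probes of 1 gene are numbered by their unadjusted p. The interval of Eef1a2, from -1.43 to -0.65, lies furthest from 0, and 88 of the 90 intervals lie within a 2-fold change either way.

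The elongation factor eEF1 held the difference furthest from 0 and the highest median of the role groups (0.24 over 9 probes). Eef1a2 encodes the form of eEF1A that skeletal muscle, heart and nervous system are known to use in place of the widely expressed form encoded by Eef1a1. Its only probe lies at chr2:180884427-180884486 (mm9, minus strand) and is assigned to the gene by the scanner files, which give no exon or UTR. The first 30 of the 60 bases of the Eef1a2 probe are shown, as the sequence this result was read with, beside 30 bases each of the probes of Eef1a1, at chr9:78326435-78326494 (probe 1) and chr9:78326385-78326444 (probe 2), both mm9 and minus strand. Capitals mark the 10 bases that the Eef1a1 probes share where they overlap on the transcript.
Eef1a2 probe, first bases: cgggttcaatgtgaagaatgtgtccgttaa
Eef1a1 probe 1, last bases: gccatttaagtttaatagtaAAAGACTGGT
Eef1a1 probe 2, first bases: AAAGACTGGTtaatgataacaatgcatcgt
No run of 20 bases of the Eef1a2 probe occurs in a probe of another name on the array, whereas probe 2 of Eef1a1 shares such a run with a probe of Gm6548, so its signal is not certain to come from Eef1a1 alone.

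Eef1a2 read -3.28, -3.21, -3.66 and -3.66 on the high-fat arrays, against -2.64, -2.28, -2.58 and -2.12 on the control arrays. All 4 high-fat arrays lay below all 4 control arrays. The difference was -1.04 ± 0.17 (95% interval -1.43 to -0.65), a 2.06-fold lower signal, with an unadjusted p of 0.000234 and an adjusted p of 0.286 in limma, so it did not pass the test. By unadjusted p it stood at place 21 among all 26076 probes. Within slides it was -0.78 (slide 1) and -1.31 (slide 2), and the interaction of diet with slide, -0.53, was not past the threshold (unadjusted p of 0.117, adjusted p of 0.79 in limma). The probe was dim. Its processed signals were 37.4, 51.4, 36.4 and 31.3 intensity units on the high-fat arrays, against 114, 97.1, 56.0 and 103 on the control arrays, where the lowest signals counted as well above background were between 10.3 and 12.3 on high-fat arrays and between 9.89 and 16.6 on control arrays. The size depended on the processing. In the deposited value table, whose processing steps are not given, it was -0.18. It was -0.45 with normexp background correction and an offset of 50 without spots of high local background. With normexp on all spots, where a smear over 7 spots on high-fat replicate 2 enters the fit, it was 0.10.

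Markers of alpha cells, which share the islet with beta cells, differed in the same direction as Eef1a2 for some of their genes. Of 7 alpha cell probes for 6 genes, 5 were lower at an unadjusted p under 0.05 in limma, where the array as a whole had 3.39%. Of these 7 probes 0 passed the adjusted threshold, and the median difference was -0.94. Irx1, a homeobox transcription factor gene of alpha cells, stood at -1.1 ± 0.22, and the levels of the diets did not overlap on its probe. The probes of Irx2, a related factor, stood at -0.94 ± 0.31 and -0.78 ± 0.23 with overlapping diets. Among the abundant alpha cell products, Gcg (glucagon) stood at -0.16 ± 0.16 and Ttr (transthyretin) at 0.03 ± 0.16. The mean level over the alpha cell genes was between 1.48 and 1.94 on high-fat arrays and between 2.17 and 2.71 on control arrays, while the summed linear level, which Gcg and Ttr dominate, was between 275.9 and 335.2 times the 75th percentile on high-fat arrays and between 269.1 and 369.9 on control arrays. Of 5 probes of delta and PP cell markers, 4 were lower at an unadjusted p under 0.05 in limma (3.39% of all probes), with a median difference of -0.44. Their summed level was between 226.2 and 284.4 on high-fat arrays and between 282.6 and 352.1 on control arrays. The neuron and Schwann cell list had 1 of 10 probes lower at that p (3.39% of all probes). Its median was -0.40, with summed levels between 12.8 and 14.5 on high-fat arrays and between 14.8 and 18.4 on control arrays. In the muscle list Ckm, Myh4 and Tnnt3 did not pass the filter on dim probes, and the kept probes had a median of -0.13. Among these Actn3, a sarcomeric actinin, stood at -1.01 ± 0.15, Mylpf, a myosin light chain, at -0.13 ± 0.21 and Acta1, skeletal actin, at 0.02 ± 0.23, and the diets overlapped for Mylpf and Acta1. The Actn3 probe was dim, at levels between -5.13 and -4.68 on high-fat arrays and between -4.06 and -3.67 on control arrays. It was well above background on 4 high-fat and 4 control arrays. Beta cell markers had 5 of 10 probes above 0 and a median of -0.08. The part of these cells in the Eef1a2 difference was not tested, and in such samples fewer cells of a type and less RNA per cell cannot be told apart.

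**Figure D2:**
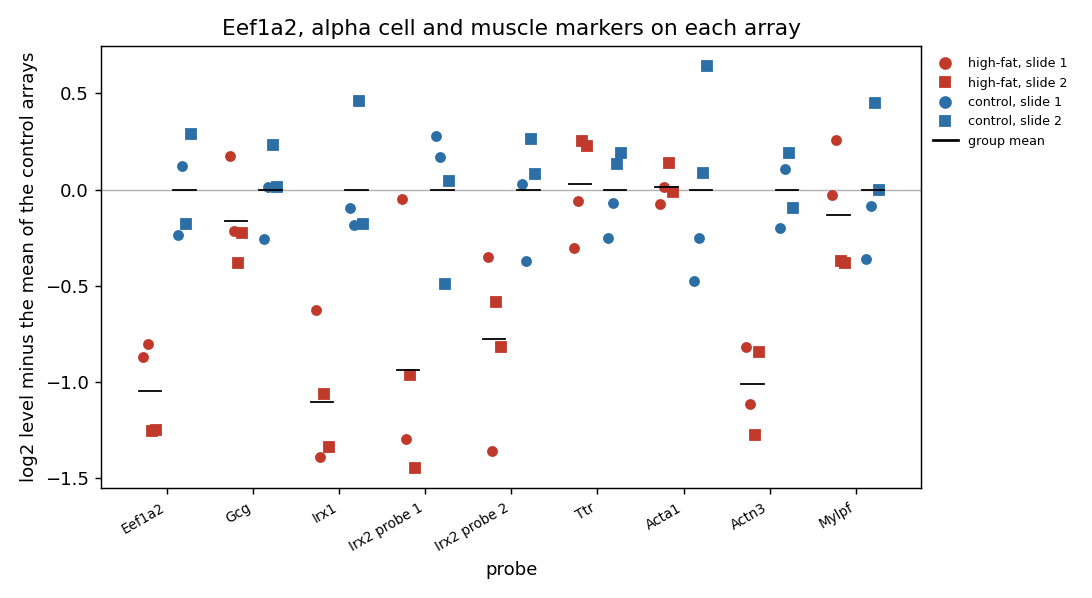
Level of Eef1a2, of 5 probes for the alpha cell markers Gcg, Irx1, Irx2 and Ttr and of the muscle markers Acta1, Actn3 and Mylpf on each array, as the log2 level minus the mean of the control arrays; red marks high-fat arrays and blue control arrays, circles slide 1 and squares slide 2, and lines the group means. High-fat arrays lie below all control arrays for Eef1a2, Irx1 and Actn3, whereas Gcg, Ttr, Acta1 and Mylpf overlap between the diets.

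Neither probe of Eef1a1 passed the test. Its probe 1 read 5.91, 5.99, 6.12 and 6.31 on the high-fat arrays, against 5.39, 5.64, 6.35 and 5.93 on the control arrays, and its probe 2 read 5.99, 6.19, 5.93 and 6.19 on the high-fat arrays, against 5.67, 5.83, 6.26 and 5.94 on the control arrays. The diets overlapped, and on both probes control replicate 3 lay above all 4 high-fat arrays. The differences were 0.25 ± 0.21 and 0.15 ± 0.15, with adjusted p-values of 0.923 and 0.925 in limma.

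The exchange factor subunits of eEF1 stood on the positive side. Eef1g encodes the γ subunit, which anchors the exchange complex, and its 3 probes all had differences above 0. Probe 1 (chr19:9052620-9052679) and probe 2 (chr19:9051808-9051870), on the plus strand of mm9, are shown by their first 30 of 60 bases, because they are the only factor probes of 1 gene that were both past the unadjusted threshold.
Eef1g probe 1, first bases: tgcacctaccctccaagggagatgggggtc
Eef1g probe 2, first bases: tacctttgtgttggatgagtttaagcgtaa
Probe 1 read 5.90, 6.23, 5.86 and 5.96 on the high-fat arrays, against 5.47, 5.8, 5.78 and 5.46 on the control arrays. Probe 2 read 3.81, 4.12, 4.22 and 4.24 on the high-fat arrays, against 3.79, 3.88, 3.70 and 3.83 on the control arrays. For probe 1 the diets did not overlap, and for probe 2 high-fat replicate 1 lay among the control arrays. The differences were 0.36 ± 0.14 (unadjusted p of 0.0299, adjusted p of 0.798 in limma) and 0.30 ± 0.12 (unadjusted p of 0.0403, adjusted p of 0.828 in limma). On slide 1 they were 0.43 and 0.13, and on slide 2 they were 0.29 and 0.47. Probe 3 had a difference of 0.24 ± 0.17, with overlapping diets. Probe 1 shares a run of 20 or more bases with another probe on the array that carries no gene symbol.

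Eef1b2, the catalytic exchange subunit, read 5.19, 5.34, 5.18 and 5.29 on the high-fat arrays, against 4.72, 5.03, 5.28 and 4.75 on the control arrays, and of the control arrays control replicate 3 alone lay among the high-fat arrays. Its difference was 0.31 ± 0.14 (adjusted p of 0.862 in limma). Eef1d, another exchange subunit, had spots marked as outliers on 3 arrays. It read 4.53, 4.76 and 4.36 on high-fat replicates 1 to 3, against 4.08 and 4.54 on control replicates 1 and 2, with a difference of 0.24 ± 0.22 over these 5 arrays. Eef1e1, a protein of the multi-tRNA synthetase complex that carries an elongation factor name, stood at -0.07 ± 0.13. Across the eEF1 probes other than Eef1a2 and Eef1e1, a set formed after their values had been seen, all 7 probes of 4 genes had differences above 0, between 0.15 and 0.36, with a median of 0.25. Eef1a2 and Eef1e1 were the only eEF1 probes below 0, so this count was fixed by leaving them out. Of all 9 eEF1 probes, 7 were above 0, against 48.0% of all probes. On slide 1 the 7 were above 0 (median 0.35), and on slide 2, where Eef1d was not measured in both diets, 5 of 6 were (median 0.26), with Eef1a1 probe 2 at -0.04. After quantile normalization 6 of these 7 were above 0 (median 0.17), in the authors' deposited values all 7 (median 0.19), and with normexp on all spots 0 of 7 (median -0.17, where the median of all probes was 0.19).

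**Figure D3:**
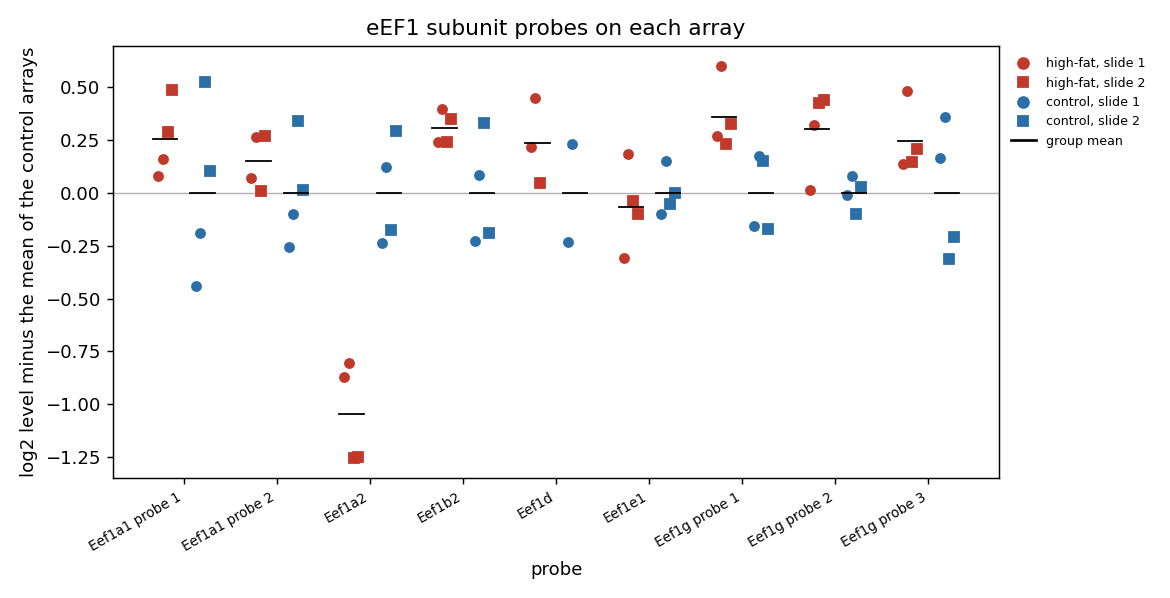
Level of each of the 9 eEF1 probes on each array, as the log2 level minus the mean of the control arrays; red marks high-fat arrays and blue control arrays, circles slide 1 and squares slide 2, and lines the group means. Eef1a2 lies apart at a mean of -1.04, while the means of the probes of Eef1a1, Eef1b2, Eef1d and Eef1g lie between 0.15 and 0.36.

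Eef2, the translocase, and Eef2k, the kinase that inhibits it by phosphorylation, did not pass the test either. Eef2 read 5.95, 6.2, 6.01 and 5.85 on the high-fat arrays, against 5.57, 6.02, 6.05 and 5.88 on the control arrays, a difference of 0.12 ± 0.14. Among the 3 probes of Eef2k, probe 1 had the smallest p of the factors after Eef1a2 but is dim, and it lies at chr7:128050093-128050152 (mm9, plus strand), with its first 30 bases shown because the other probes of the gene differ from it.
Eef2k probe 1, first bases: acaagctttatgagtgtaaaaaagaaacat
It read -4.44, -4.65, -4.67 and -4.80 on the high-fat arrays, against -5.0, -5.20, -4.87 and -5.08 on the control arrays, and was well above background on 4 high-fat and 2 control arrays. The diets did not overlap, and the difference was 0.40 ± 0.12 (unadjusted p of 0.0107, adjusted p of 0.731 in limma). Probe 2 of Eef2k read -2.62, -2.37, -2.74 and -2.59 on the high-fat arrays, against -2.84, -2.79, -2.54 and -2.64 on the control arrays. Probe 3 read -2.84, -2.74, -3.10 and -3.13 on the high-fat arrays, against -2.81, -2.72, -3.09 and -2.85 on the control arrays. The diets overlapped on both, and their differences of 0.12 ± 0.12 and -0.08 ± 0.14 had opposite signs.

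Among the factors that carry the initiator tRNA, 1 of 10 eIF2 probes was past the unadjusted threshold, a lower one, where the array had 3.39% lower. Eif2s1 encodes eIF2α, the subunit whose phosphorylation restrains translation, and its probes gave different results. They lie at chr12:79987922-79987981 (probe 1) and chr12:79986224-79986283 (probe 2), both on the plus strand of mm9, so they read separate stretches, and their first 30 bases are shown for comparison.
Eif2s1 probe 1, first bases: taattccagtacttgggaggctagcctagt
Eif2s1 probe 2, first bases: ccagggactccaaacacaaacaatcccaat
Probe 1 read -2.71, -3.43, -3.18 and -3.23 on the high-fat arrays, against -2.45, -2.91, -2.70 and -2.80 on the control arrays. Only high-fat replicate 1 reached the range of the control arrays, and the difference was -0.42 ± 0.18 (unadjusted p of 0.0416, adjusted p of 0.835 in limma), with -0.39 on slide 1 and -0.45 on slide 2. Its processed signals were between 42.0 and 55.4 intensity units on high-fat arrays and between 51.6 and 131 on control arrays. Probe 2 had a difference of -0.02 ± 0.13, with an adjusted p of 0.986 in limma. The β subunit gene Eif2s2 had differences of 0.17 ± 0.14 and 0.07 ± 0.18 on its probes.

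The γ subunit of eIF2 is encoded in mice by Eif2s3x on the X chromosome and by Eif2s3y on the Y chromosome. Eif2s3y read 1.19, 0.80, 1.06 and 0.85 on the high-fat arrays, against 1.26, 0.96, 1.1 and 0.77 on the control arrays. The kept probes of Eif2s3x read -0.04, -0.06, 0.02 and 0.18 on the high-fat arrays, against -0.05, 0.04, -0.21 and 0.05 on the control arrays, and 0.56, 0.08, 0.23 and 0.04 on the high-fat arrays, against 0.45, 0.25, 0.23 and 0.11 on the control arrays. All 3 overlapped between the diets, with differences of -0.05 ± 0.14 for Eif2s3y and of 0.07 ± 0.11 and -0.03 ± 0.14 for Eif2s3x. Eif2a and Eif2d, which can deliver initiator tRNA apart from eIF2, stood at 0.05 ± 0.14 for Eif2a and at 0.26 ± 0.18 and 0.23 ± 0.19 for Eif2d. Of the eIF2B exchange factor, 0 of 6 probes for 5 subunits were past the unadjusted threshold, and the median difference was 0.043. Eif2b2, the β subunit, was the member with the smallest p there. It read 3.23, 3.48, 3.25 and 3.09 on the high-fat arrays, against 3.05, 3.18, 2.98 and 3.00 on the control arrays, a difference of 0.21 ± 0.12 (adjusted p of 0.9 in limma), with high-fat replicate 4 within the control range.

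The eIF3 scaffold, the group with most probes, had 0 of 21 probes past the unadjusted threshold, and 18 of the 21 differences were above 0, with a median of 0.088 and a range of -0.051 to 0.32. The median was 0.095 on slide 1 and 0.044 on slide 2. After quantile normalization 12 of the 21 were above 0 (median 0.017), and in the deposited value table also 12 (median 0.017). The subunit gene Eif3m came highest on both of its probes. One read 3.35, 3.72, 3.59 and 3.73 on the high-fat arrays, against 3.18, 3.55, 3.28 and 3.35 on the control arrays, and the other read 3.57, 3.80, 3.91 and 4.07 on the high-fat arrays, against 3.13, 3.54, 3.72 and 3.68 on the control arrays. The diets overlapped on both, and the differences were 0.26 ± 0.13 and 0.32 ± 0.17, with adjusted p-values of 0.882 and 0.892 in limma. The 3 probes of Eif3c, a core subunit, lay between -0.05 and 0.03, and the 3 of Eif3k, a peripheral subunit, between 0.04 and 0.12.

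Of the factors of start codon choice (Eif1, Eif1b, Eif1a, Eif1ax, the related Eif1ad and the pseudogene Eif1-ps), 0 of 8 probes were past the unadjusted threshold, with differences between -0.08 and 0.14 and a median of 0.062. One probe of Eif1 was the only factor probe with a slide difference past the adjusted threshold (slide 2 minus slide 1, 0.45, adjusted p of 0.0473 in limma), against 2.77% of all probes. Its diet difference was 0.11 on slide 1 and 0.09 on slide 2.

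The cap-binding complex gave no probe past the unadjusted threshold. The helicase gene Eif4a1 read 4.11, 4.50, 4.09 and 4.27 on the high-fat arrays, against 4.12, 4.49, 4.20 and 3.97 on the control arrays, and its paralogue Eif4a2 read 1.41, 1.45, 1.49 and 1.54 on the high-fat arrays, against 1.51, 1.68, 1.04 and 1.70 on the control arrays on the probe measured on all arrays. The other Eif4a2 probe, whose spot was marked as an outlier on control replicate 1, read 5.16, 5.19, 5.09 and 5.0 on the high-fat arrays, against 4.84, 4.99 and 4.88 on control replicates 2 to 4, so on these 7 arrays the diets did not overlap. Eif4a3, the helicase of the exon junction complex, read 0.44, 0.78, 0.66 and 0.58 on the high-fat arrays, against 0.83, 0.80, 0.38 and 0.59 on the control arrays. The diets overlapped for Eif4a1, for the Eif4a2 probe measured on all arrays and for Eif4a3, with differences of 0.05 ± 0.15 for Eif4a1, -0.01 ± 0.16 and 0.20 ± 0.11 for Eif4a2 and -0.04 ± 0.14 for Eif4a3. Eif4b, which stimulates the helicase, had 3 probes. The one with the smallest p read 2.23, 2.48, 2.15 and 2.29 on the high-fat arrays, against 2.05, 2.20, 2.05 and 1.96 on the control arrays, a difference of 0.22 ± 0.11 (adjusted p of 0.879 in limma), and its others stood at 0.17 ± 0.15 and -0.02 ± 0.15. Eif4h, a related cofactor, stood at -0.03 ± 0.10.

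Eif4e, the cap-binding protein, had 3 kept probes. Probe 1 read -0.99, -1.1, -0.95 and -1.26 on the high-fat arrays, against -0.72, -0.92, -1.13 and -0.82 on the control arrays. Probe 2 read 1.42, 1.54, 1.5 and 1.67 on the high-fat arrays, against 1.42, 1.53, 1.62 and 1.43 on the control arrays. Probe 3, well above background on 2 high-fat and 2 control arrays, read -4.77, -4.48, -5.34 and -4.92 on the high-fat arrays, against -4.77, -4.80, -4.69 and -5.27 on the control arrays. Their differences were -0.18 ± 0.13, 0.03 ± 0.10 and 0.01 ± 0.21, and the diets overlapped on each. Eif4e2, a cap-binding repressor, read 0.61, 1.05, 0.78 and 0.76 on the high-fat arrays, against 0.58, 0.78, 0.68 and 0.61 on the control arrays on one probe and -3.37, -3.99, -3.63 and -3.70 on the high-fat arrays, against -3.48, -3.64, -3.31 and -3.45 on the control arrays on the other. These gave differences of opposite sign, 0.14 ± 0.12 and -0.20 ± 0.15. Eif4e3, a further cap-binding relative, read -1.95, -1.97, -1.81 and -1.86 on the high-fat arrays, against -1.87, -1.83, -1.74 and -1.79 on the control arrays, a difference of -0.09 ± 0.09.

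The binding proteins that hold eIF4E inactive until mTORC1 phosphorylates them did not pass the test. Eif4ebp1 read 2.81, 2.85, 2.58 and 2.51 on the high-fat arrays, against 2.29, 2.56, 2.73 and 2.38 on the control arrays. Eif4ebp2 read 1.11, 0.93, 0.76 and 0.81 on the high-fat arrays, against 0.88, 1.08, 1.17 and 0.98 on the control arrays. Eif4ebp3 read 0.86, 0.77, 0.87 and 0.67 on the high-fat arrays, against 1.12, 1.09, 0.63 and 0.87 on the control arrays. The diets overlapped for all 3, with differences of 0.19 ± 0.14 for Eif4ebp1, -0.12 ± 0.12 for Eif4ebp2 and -0.13 ± 0.13 for Eif4ebp3. On slide 1 these were 0.40, 0.04 and -0.29, and on slide 2 they were -0.02, -0.29 and 0.02. Eif4enif1, which carries eIF4E into the nucleus, stood at -0.05 ± 0.11.

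The scaffold genes of eIF4G were represented by 6 probes, of which 2 had differences above 0. Eif4g1 read 4.06, 4.48, 4.17 and 4.29 on the high-fat arrays, against 4.04, 4.40, 4.17 and 4.04 on the control arrays, a difference of 0.09 ± 0.13. Eif4g2 (DAP5), which lacks the eIF4E-binding region, read 2.07, 2.17, 2.37 and 2.27 on the high-fat arrays, against 2.20, 2.19, 1.72 and 2.22 on the control arrays, a difference of 0.14 ± 0.14, with control replicate 3 below all other arrays. Of the 4 probes of Eif4g3, probe 1 read -4.65, -5.82, -4.66 and -5.02 on the high-fat arrays, against -4.14, -4.79, -4.80 and -4.68 on the control arrays, and was well above background on 3 high-fat and 4 control arrays. On probe 2 the diets overlapped closely, at 1.31, 1.44, 1.58 and 1.34 on the high-fat arrays, against 1.51, 1.47, 1.40 and 1.60 on the control arrays. Probes 3 and 4 of Eif4g3 read -2.77, -3.19, -3.06 and -2.89 on the high-fat arrays, against -2.50, -2.97, -3.36 and -2.71 on the control arrays, and -2.96, -3.55, -3.10 and -3.68 on the high-fat arrays, against -3.15, -3.28, -3.58 and -3.23 on the control arrays. The diets overlapped on all 4, with differences of -0.43 ± 0.28, -0.08 ± 0.11, -0.09 ± 0.20 and -0.01 ± 0.19 on probes 1 to 4.

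Of the factors of subunit joining, Eif5, which triggers GTP hydrolysis on eIF2, was the one with a probe past the unadjusted threshold. That probe lies at chr12:112784725-112784784 (mm9, plus strand), and its first 30 bases are shown because the diets did not overlap on it.
Eif5 probe 1, first bases: cgttgctctattgaggtgtcataaagtttc
It read 3.75, 3.84, 3.83 and 3.68 on the high-fat arrays, against 3.60, 3.61, 3.53 and 3.49 on the control arrays. The difference was 0.22 ± 0.09 (unadjusted p of 0.0457, adjusted p of 0.839 in limma), with 0.19 on slide 1 and 0.25 on slide 2, and the other probe of Eif5 stood at 0.17 ± 0.11. Eif5a, the hypusine-containing factor that helps ribosomes past difficult stretches, read 3.39, 3.77, 3.52 and 3.5 on the high-fat arrays, against 3.35, 3.52, 3.28 and 3.16 on the control arrays. Its paralogue Eif5a2 read -0.49, -0.39, -0.45 and -0.54 on the high-fat arrays, against -0.57, -0.59, -0.28 and -0.33 on the control arrays. The diets overlapped for both, with differences of 0.22 ± 0.13 for Eif5a and -0.02 ± 0.11 for Eif5a2. Eif5b, the GTPase of subunit joining, stood at -0.20 ± 0.23 on a dim probe that was well above background on 2 high-fat and 3 control arrays. Eif6, which keeps the large subunit from joining early, had 3 probes with differences between -0.14 and 0.02.

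Several probes were kept for 22 of the 59 genes, and for 11 of these the sign of the difference was not shared. Those genes were Eef2k, Eif1, Eif1ad, Eif2b3, Eif2s3x, Eif3c, Eif4a2, Eif4b, Eif4e, Eif4e2 and Eif6, and within them the probes of Eef2k were furthest apart, by 0.48. The widest spread among genes whose probes shared a sign was 0.43 for Eif4g3, with 0.40 for Eif2s1. Runs of 20 or more bases shared with a probe of another name leave the source of signal uncertain for Eif1-ps and for 1 probe each of Eif2s1 (probe 2), Eif2s2, Eif3h and Eef1g and both of Eef1a1. Between the slides, 49 of 89 factor probes measured on both had the same sign of difference, against 13652 of 26041 over the whole array. For the interaction of diet with slide, 0 of 89 factor probes were past an unadjusted p of 0.05 in limma, against 6.52% of all probes, and the smallest unadjusted p was 0.0741.

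**Figure D4:**
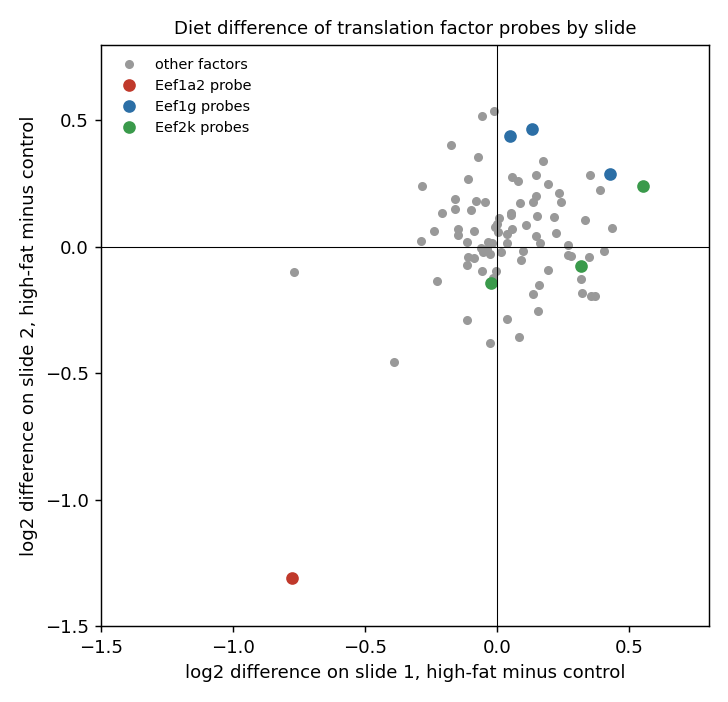
Log2 difference between the diets, high-fat minus control, on slide 1 (horizontal axis) and slide 2 (vertical axis) for the 89 translation factor probes measured on both slides, each from 2 high-fat and 2 control arrays, except 1 Eif4a2 probe with 1 control array on slide 1. Eef1a2 lies apart at -0.78 on slide 1 and -1.31 on slide 2, the 3 Eef1g probes are above 0 on both, and 49 of the 89 probes have the same sign on both.

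Lists of factor genes and of genes around the factors were also read. Some mRNAs of the translation machinery carry a terminal oligopyrimidine (TOP) start, known in human cells to place them under mTORC1. The list of factor genes known as TOP mRNAs in human held 8 genes (Eef1a1, Eef1b2, Eef1d, Eef1g, Eef2, Eif3e, Eif3f and Eif3h) with 12 probes. Of these probes 11 had differences above 0, against 48.0% of all probes, with a median of 0.20 (0.24 on slide 1 and 0.11 on slide 2). They include the 7 eEF1 probes other than Eef1a2 and Eef1e1, all above 0, so this count largely repeats that one. The 2 past the unadjusted threshold were those of Eef1g described above, where the array had 2.41% higher. The count above 0 was 7 of 12 after quantile normalization (median 0.088), 8 of 12 in the deposited value table (median 0.077), 12 of 12 after median scaling and 0 of 12 with normexp on all spots. Of 32 probes for the mTORC1 pathway and its eIF4E branch, 0 were past the unadjusted threshold in either direction, with a median of 0.021. The 26 probes for cytosolic aminoacyl-tRNA synthetases, which charge the tRNAs that eEF1A carries, likewise had 0 in either direction and a median of 0.050. The 13 probes for mitochondrial translation factors had 0 and a median of 0.015.

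Among the eIF2α kinases, their regulators and the phosphatase subunits, 16 probes gave 1 past the unadjusted threshold, a lower one (3.39% of all probes were lower), with a median of 0.009. The lower one was a probe of Impact, which restrains activation of the kinase GCN2. It read -3.12, -3.33, -3.53 and -3.44 on the high-fat arrays, against -2.71, -3.07, -2.70 and -3.04 on the control arrays. The diets did not overlap on it, and the difference was -0.47 ± 0.14 (unadjusted p of 0.00986, adjusted p of 0.724 in limma), with -0.39 ± 0.19 on the other probe of Impact. Eif2ak3, the gene of PERK, stood at 0.12 ± 0.14 on the probe that read 1.45, 1.37, 1.18 and 1.31 on the high-fat arrays, against 1.09, 1.28, 1.51 and 0.96 on the control arrays. Of 24 probes for termination, recycling and other cytosolic factors, 0 were higher and 1 lower past that threshold, where the array had 2.41% and 3.39%. Their median was 0.016. The lower one belonged to Mcts2, a ribosome recycling factor gene, with a difference of -0.38 ± 0.17 (unadjusted p of 0.0473, adjusted p of 0.851 in limma) and overlapping diets.

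**Figure D5:**
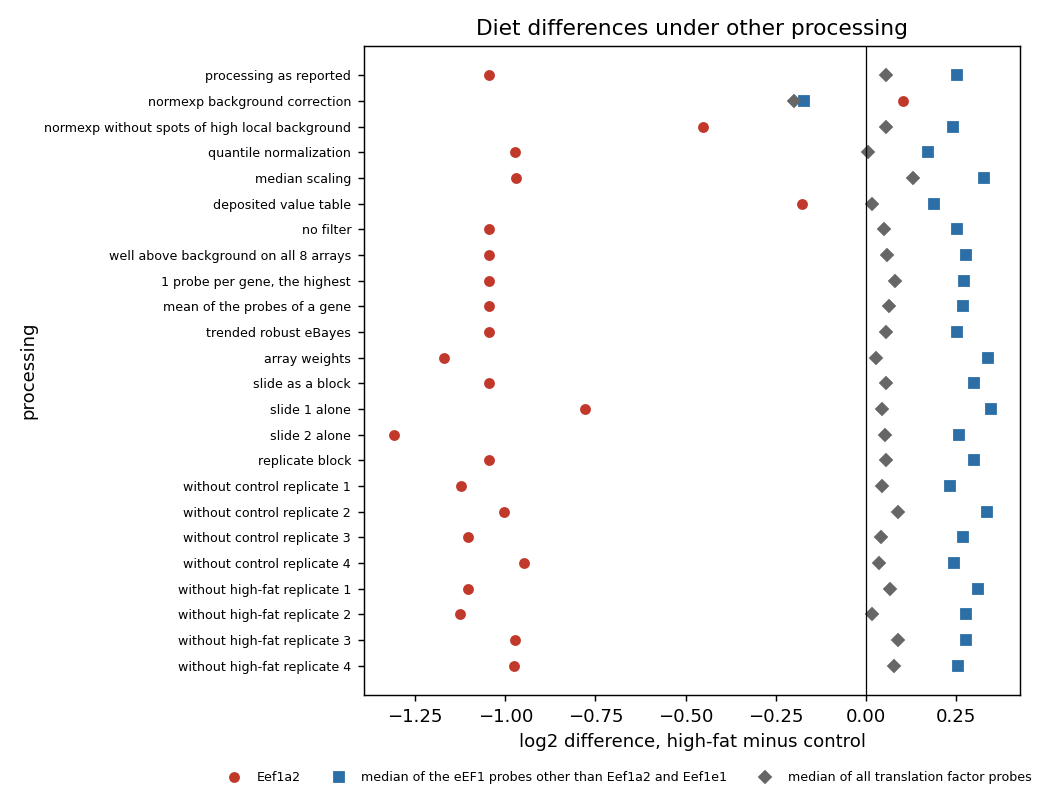
Log2 difference between the diets, high-fat minus control, under the processing as reported and 23 alternatives (rows), for Eef1a2 (circles), as the median of the eEF1 probes other than Eef1a2 and Eef1e1 (squares) and as the median of all translation factor probes (diamonds). The set marked by squares was formed after its values had been seen. Eef1a2 lies between -1.31 and -0.18 except with normexp on all spots, at 0.10, the row in which both medians lie below 0.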

How the data were processed

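Agilent Feature Extraction 11.5.1.1 turned the scans into 1 line per spot, with the signal in intensity units, per the file headers. The deposited value table holds log2 values of the same arrays, for which the submitters' processing notes name limma without a version or steps. Its scale is log2, while its background handling and offset are not given in the sources used here. From the scanner files, the deposited processed intensity of each spot was converted to log2 and set relative to the 75th percentile of its array. Between 125 and 228 outlier spots per array and all control spots were dropped. Spots of a probe were averaged, and a probe counted as well above background on an array when at least 0.5 of its spots carried that flag. Probes that reached this on 4 or more of the 8 arrays entered limma 3.58.1 under R 4.3.3 (functions lmFit and eBayes, two-sided), high-fat minus control without covariates, with p-values adjusted by Benjamini and Hochberg over all 26076 probes and a threshold of 0.05. The procedure was tested on simulated data. P-values measure the spread between 4 samples per diet, and the number of arrays limits the precision.

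The factors, the gene lists and the tests were chosen with earlier results of these arrays known, so no count here is independent of them. Values on every array are given for Eef1a2, for the 12 factor probes with the smallest unadjusted p and for sets of paralogues (40 probes of 27 genes in all), and other probes by role group. Some genes of the cell type lists count in their list and are not reported here singly. Alternatives were normexp background correction (offset 50) on all spots or without spots whose local background exceeded 4 times the array's median, quantile and median scaling, the deposited value table, other filters on dim probes, 1 probe or the mean of probes per gene, a trended and robust eBayes, array weights, a block for slide or for replicate number, the slides taken singly, and fits without each sample in turn. Probe sequences and positions (mm9) are those of the scanner files. Tables used Python 3.11.15 with pandas 2.3.3 (numpy 2.4.6), and plots were made in matplotlib 3.10.9.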

Additional observations from a re-analysis of the deposited data

Results flagged for a closer look

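Of 79 groups of 4 samples among the 40 probes reported array by array, 1 held a sample far from the others, where chance gives such a sample in about 1 of 20 groups. It was control replicate 3 on the probe of Eif4g2, at a level of 1.72, against 2.19 for the nearest of the other control arrays. The gap made up 0.943 of the range of the control arrays, above Dixon's 95% limit for 4 samples.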

How the results depend on the processing

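Across 23 alternatives the number of factor probes past an adjusted p of 0.05 in limma was 0 in each. Over all probes it was 1 with the trended and robust eBayes and between 0 and 2 when a sample was left out (2 without high-fat replicate 1), and 0 in the others. The 4 factor probes higher at an unadjusted p under 0.05 became 0 with normexp on all spots, 1 with normexp without spots of high local background, with quantile normalization, with the mean of a gene's probes and on slide 1 alone, 2 with 1 probe per gene and on slide 2 alone, and between 1 and 5 when a sample was left out (1 without control replicate 1, without control replicate 4 or without high-fat replicate 2, and 2 without high-fat replicate 3 or 4). The 2 lower ones became 0 with normexp on all spots, 1 with normexp without spots of high local background, median scaling, quantile normalization, the deposited value table, 1 probe per gene, the trended and robust eBayes and slide 1 alone, and between 1 and 2 when a sample was left out (1 without control replicate 1, 3 or 4 or high-fat replicate 2, 3 or 4). With array weights 6 factor probes were higher and 2 lower. Counts over the whole array moved as well, from 629 higher and 884 lower as reported. They were 98 and 67 with normexp on all spots, 523 and 372 without spots of high local background, and 760 and 633 with quantile normalization. On slide 1 alone they were 1209 and 706, with array weights 1236 and 1396, and without high-fat replicate 2 they were 402 and 740. The median difference over the factor probes was -0.20 with normexp on all spots, where that of all probes was 0.19. The same alternative reversed Eef1a2 (0.101), Eif2s1 probe 1 (0.385), Eif5 probe 1 (-0.21) and Eef1g probes 1 and 2 (-0.0554 and -0.13). Without the 7 smeared spots of high-fat replicate 2, none of these 5 was reversed. The difference of Eef1a2 lay between -1.12 and -0.95 when a sample was left out, with adjusted p-values between 0.14 and 0.96 over all alternatives. Same-numbered samples correlated in their deviations from the group means at 0.237, 0.394, -0.024 and 0.299 for numbers 1 to 4. Pairs of different numbers correlated at between -0.301 and 0.177, so numbers 1, 2 and 4 lay above all of these and number 3 did not. Every same-numbered pair shared a slide, whereas many pairs of different numbers did not, so slide enters this comparison. Pairs of different numbers on the same slide correlated at between -0.104 and 0.177. Whether the numbers pair the samples is not known, and the fit as reported did not use them. With the replicate block the factor probe counts were 0 adjusted, 4 higher and 2 lower and the median 0.055. Over the whole array that block gave 965 probes upward and 1470 downward past the unadjusted threshold, against 629 and 884 without it. Dim probes limit what can be read: 5 of the 90 were measured on all 8 arrays but well above background on fewer.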

Other observations

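The diet differences of the acinar cell markers were above 0 on slide 1 and below 0 on slide 2. Of 9 acinar probes for 7 genes, 7 were past an unadjusted p of 0.05 in limma for the interaction of diet with slide, against 6.52% of all probes, and 0 passed the adjusted threshold. Their median difference, high-fat minus control, was 0.71 on slide 1 and -0.36 on slide 2. On all 9 probes control replicate 1 (slide 1) was the lowest control array and control replicate 3 (slide 2) the highest. The probes follow the same samples, so their count does not measure repeats of the result. Over the same slides the median of the factor probes was 0.043 (slide 1) and 0.052 (slide 2). Some bright factor probes had the acinar order of control arrays all the same. Control replicate 1 was the lowest and control replicate 3 the highest on both Eef1a1 probes and those of Eef1b2 and Eef2. Their differences were 0.43, 0.35, 0.39 and 0.28 on slide 1, and 0.07, -0.04, 0.22 and -0.03 on slide 2. The Eef1g probes did not have that order. A part of acinar RNA in these levels was not tested.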
